A study of Mus musculus with 6 samples.

Results

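The transcripts described here are 9 genes that are used as labels of B lymphocytes and of plasmacytoid dendritic cells, chosen by their symbols from a count table of 26519 genes. All 9 were found. Of these, 5 belong to the B lineage (Ighm, Igkc, Cd79a, Cd79b and Ms4a1) and 4 to plasmacytoid dendritic cells (Siglech, Tcf4, Ly6d and Runx2). They were measured by RNA sequencing of dendritic cells taken from tumours, in 3 wild-type libraries and 3 MAVS knockout libraries. Every host carried a tumour of MC38, a mouse colon carcinoma line, and the cells were isolated 10 days after inoculation. The groups differed, per the labels, in host genotype alone: wild-type, or lacking MAVS, the mitochondrial adaptor through which RIG-I and MDA5 signal when they find viral RNA. The tumour cells were inoculated into both kinds of host, and no Cre driver or treatment is named. The sources used here do not give the age, sex or strain of the hosts, the allele of the knockout, whether cells of several animals were pooled, or how dendritic cells were separated from other cells.

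A B cell shows its antigen receptor as a membrane immunoglobulin, made of 2 heavy chains and 2 light chains, held beside a signalling pair of CD79A and CD79B. Ighm encodes the constant region of the mu heavy chain and Igkc that of the kappa light chain, each joined to a rearranged variable segment, and Ms4a1 encodes CD20. Plasmacytoid dendritic cells are the main makers of type I interferon in response to viral nucleic acids. They depend on TCF4 (also called E2-2), an E protein that is opposed by the ID inhibitors, and on RUNX2, which acts in their exit from the bone marrow, and they carry the lectin SIGLEC-H on their surface. Ly6d, a small anchored surface protein, marks early B-committed progenitors and the lymphoid route to plasmacytoid cells.

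The libraries held 14466640 to 20851733 counts. Values below are CPM, the counts of a gene per library total after scaling by the trimmed mean of M values (TMM), or raw counts where these are low. Mavs itself averaged 37.7 ± 3.32 CPM in the wild-type and 10.4 ± 2.09 CPM in the knockout group (SD, n = 3 each). It fell by 1.86 on the log2 scale (adjusted p = 0.0017, edgeR), and the deleted stretch is not named. Differences are log2 fold changes of knockout against wild-type. They were tested with edgeR's quasi-likelihood test on 12580 genes that passed a filter on low counts, and a gene is said to have risen or fallen where the Benjamini-Hochberg adjusted p was below 0.05. The labels do not say that replicates came from separate animals, so the p-values measure the spread between these samples, which may be technical. The samples are bulk RNA, in which fewer cells of a type and less RNA per cell cannot be told apart.

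Of the 9 genes, 5 passed the count filter (Ighm, Cd79b, Siglech, Tcf4 and Runx2), and 1 of these, Ighm, fell in knockout libraries. Over all tested genes 2.81% passed the test, 1.05% as lower in knockout. The groups did not overlap for Ighm and Cd79b, as they did not for 21.8% of all tested genes, 10.6% with knockout lower. Igkc, Cd79a, Ms4a1 and Ly6d were too scarce for the filter, at 45, 16, 16 and 11 counts over all 6 libraries together.

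**Figure D1:**
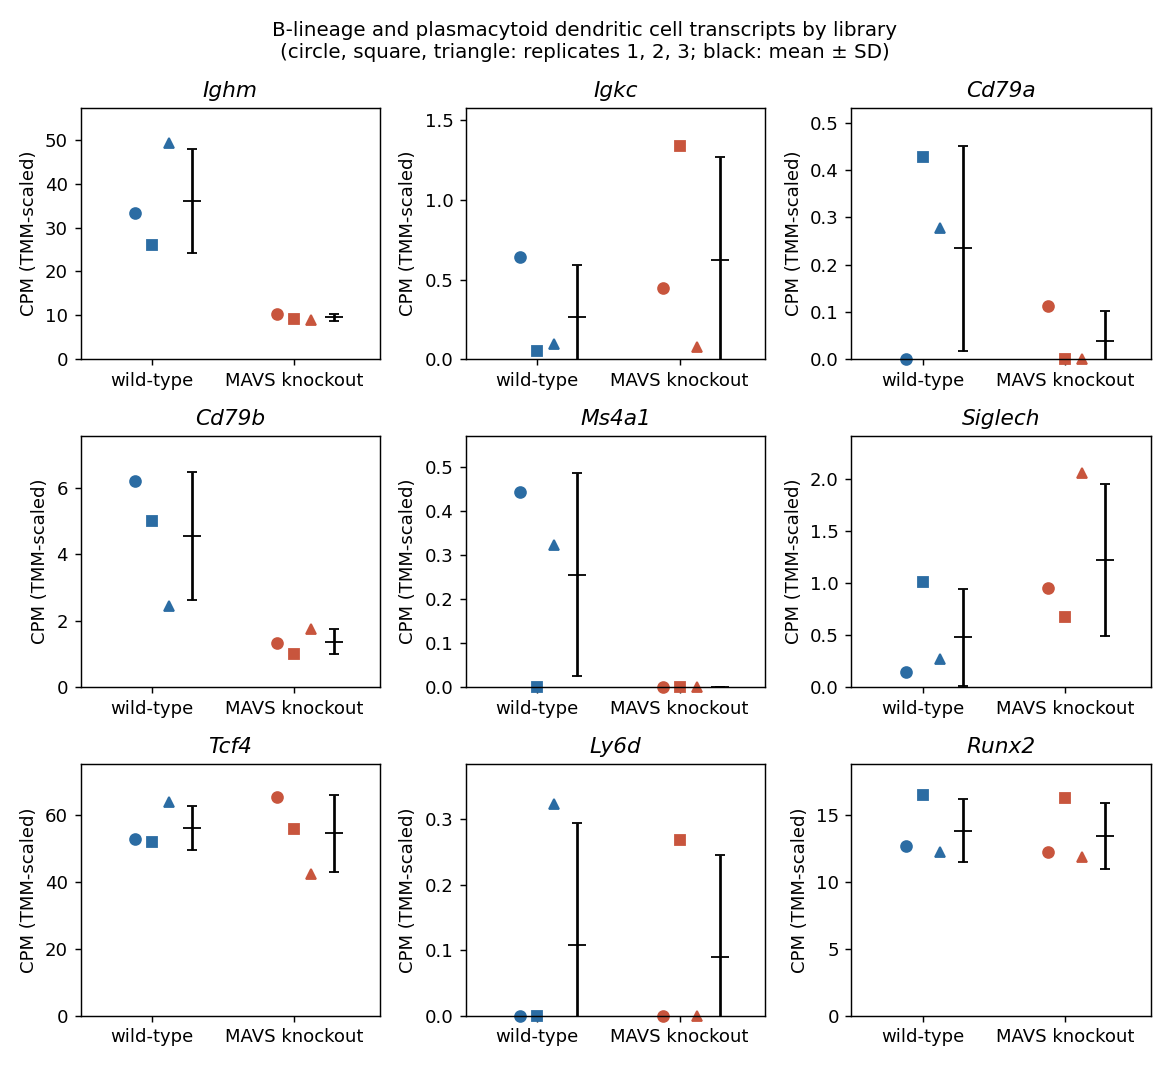
CPM of the 9 genes in each library, wild-type in blue and MAVS knockout in red, with each gene on its own linear axis from 0 and the mean ± SD (n = 3) in black, cut off at 0. Ighm lay between 26.0 and 49.2 CPM in wild-type and between 8.94 and 10.4 CPM in knockout libraries, whereas the groups overlapped for Tcf4 and Runx2.

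Ighm (ENSMUSG00000076617, chromosome 12, 113418558 to 113422730, minus strand, mm10), annotated as an immunoglobulin constant-region gene, was the most abundant of the B-lineage genes. It stood at 33.2, 26.0 and 49.2 CPM in wild-type replicates 1, 2 and 3 and at 10.4, 9.19 and 8.94 CPM in knockout replicates 1, 2 and 3. All 3 knockout libraries lay below all 3 wild-type libraries, and the wild-type libraries were the more spread, at 36.1 ± 11.9 against 9.50 ± 0.778 CPM (SD, n = 3 each). The log2 fold change was -1.93 (SE 0.23, 95% interval -2.45 to -1.40, edgeR quasi-likelihood adjusted p = 0.00783), that is 3.80-fold lower in knockout. These values rest on 674, 487 and 1068 counts in wild-type and 185, 137 and 122 counts in knockout libraries. Ighm passed in each of the 6 fits that left out 1 library, with log2 fold changes of -2.12 to -1.64, and was 1 of 23 genes that did so. It also passed under all 8 other settings tried.

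The kappa light chain was scarce. No lambda constant gene was among the 7 constant-region genes of the count table, so no lambda level is given here. Igkc (ENSMUSG00000076609, chromosome 6, 70726435 to 70726966, plus strand), the kappa constant region, had 13, 1 and 2 counts in wild-type and 8, 20 and 1 counts in knockout libraries. No order between the groups can be read from counts this low, and the groups overlapped. Per kilobase of exon, Ighm stood at 19.2 ± 6.29 and Igkc at 0.493 ± 0.617 CPM per kilobase in wild-type, and at 5.04 ± 0.412 and 1.17 ± 1.22 CPM per kilobase in knockout libraries (SD, n = 3 each). The SD of Igkc exceeded its mean in both groups, so no ratio of the pair is given. Ighd, the delta constant region that mature B cells make from the same transcript as Ighm, had 1 count in the whole table.

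Variable segments were scarce too. The table holds 41 immunoglobulin variable-segment genes, which together took 61, 31 and 18 counts in wild-type and 27, 42 and 11 counts in knockout libraries, and none passed the count filter. Among the 7 constant-region genes, Ighm took 95.7% (95% exact Clopper-Pearson interval 94.0 to 97.1), 96.1% (94.0 to 97.6) and 99.7% (99.2 to 99.9) of the counts in wild-type replicates 1, 2 and 3. In knockout replicates 1 and 3 it took 95.4% (91.4 to 97.9) and 99.2% (95.6 to 99.98). Knockout replicate 2 stood apart at 65.9% (59.0 to 72.3). That library held 51 counts of Igha, the constant region of IgA, against 0 to 19 in the others. It also held 18 counts of Jchain, the joining chain of secreted IgA and IgM, and 10 of Mzb1, a chaperone of antibody-secreting cells, against 0 to 3 and 0 in the others. Without it, the log2 fold change of Ighm was -1.90 (edgeR quasi-likelihood adjusted p = 0.0348). These intervals cover counting error alone, since reads without molecular identifiers are not independent molecules, and reads of near-identical constant regions could be assigned to either gene.

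The signalling pair was unequal. Cd79b (ENSMUSG00000040592, chromosome 11, 106311341 to 106314762, minus strand) had 6.21, 5.02 and 2.44 CPM in wild-type and 1.35, 1.01 and 1.76 CPM in knockout libraries. The lowest wild-type library, replicate 3, was the one with the most Ighm, and it lay above the highest knockout library. From 126, 94 and 53 against 24, 15 and 24 counts, the log2 fold change was -1.73 (SE 0.45, 95% interval -2.72 to -0.74), and it did not pass (edgeR quasi-likelihood adjusted p = 0.0727). Without wild-type replicate 3 it was -2.03 and passed (adjusted p = 0.046), and over the 6 fits that left out 1 library the adjusted p ran from 0.046 to 0.229. It also passed with library size alone (adjusted p = 0.0476), without the count filter (0.00679) and with the DESeq2 Wald test (0.011).

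Cd79a (ENSMUSG00000003379, chromosome 7, 24897381 to 24902197, plus strand), the partner without which CD79B does not reach the surface of a B cell, had 0, 8 and 6 counts in wild-type and 2, 0 and 0 counts in knockout libraries. Both groups held a library at 0, so no fold is given. Ms4a1 (ENSMUSG00000024673, chromosome 19, 11249675 to 11266241, minus strand) had 9, 0 and 7 counts in wild-type and 0 in each knockout library. A count of 0 allows up to 0.168, 0.201 and 0.22 CPM in knockout replicates 1, 2 and 3, where 3 counts are the limit and counting error alone is covered, and wild-type replicates 1 and 3 stood at 0.444 and 0.322 CPM. Of 11 neighbours in the MS4A cluster, several of which myeloid cells use, 3 (Ms4a2, Ms4a3 and Ms4a4d) had 10 counts or fewer in all and were not tested. Of the 8 tested 1 rose, Ms4a6d, by 0.55 on the log2 scale, from 621 ± 58.4 to 910 ± 92.7 CPM (SD, n = 3 each), and Ms4a4a had a log2 fold change of 0.77 (adjusted p = 0.102, edgeR). Ms4a6d did not pass with library size alone (adjusted p = 0.081) and passed in 1 of the 6 fits that left out a library, the one without wild-type replicate 1, with adjusted p from 0.0458 to 0.138.

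**Figure D2:**
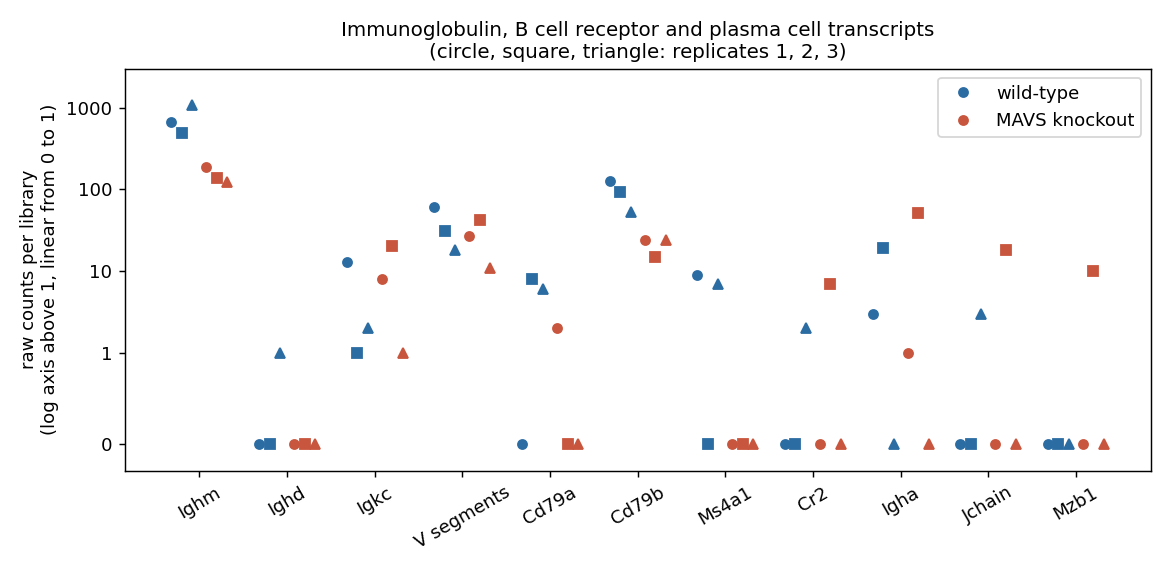
Raw counts per library of immunoglobulin, B cell receptor and plasma cell transcripts, on an axis that is logarithmic above 1 and linear from 0 to 1, wild-type in blue and MAVS knockout in red, V segments being the sum over 41 genes. Ighm reached 122 to 1068 counts in every library, while Igkc, Cd79a and Ms4a1 did not exceed 20, and knockout replicate 2 (red square) alone held more than 3 counts of Jchain and Mzb1.

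Other B cell genes were unevenly present. Cr2, the complement receptor of mature B cells, had 0, 0 and 2 counts in wild-type and 0, 7 and 0 in knockout libraries. Fcer2a, their low-affinity IgE receptor, had 2 counts in all. Ebf1, a factor that commits cells to the B lineage and is also made by stromal cells, had 47, 16 and 21 against 15, 45 and 2 counts. Others were detected in every library: Cd22, an inhibitory receptor of B cells, had 47, 58 and 91 against 123, 51 and 61 counts, and Cd37, a tetraspanin of leukocytes, had 85, 64 and 132 against 76, 74 and 52 counts. The groups overlapped for both, and neither passed. With Cd79a, Ms4a1, Ighd, Cr2 and Fcer2a at or near 0 in several libraries, Ighm and Cd79b are named below for themselves and not for a cell type.

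Of 29 further B cell genes, 21 are in the table and 8 were not analysed here. Of 17 tested, 1 fell, none rose and 16 did not pass. Their median log2 fold change was -0.30, beside -0.0022 over all tested genes. The one that fell was Siglecg, an inhibitory sialic-acid receptor of B cells that dendritic cells also make, at 9.17, 12.01 and 15.1 CPM in wild-type and 2.81, 4.83 and 1.32 CPM in knockout libraries. Its groups did not overlap (log2 fold change -2.01, SE 0.40, edgeR adjusted p = 0.032). Siglecg passed without wild-type replicate 1 or knockout replicate 2 and did not pass without any of the other 4 libraries, with adjusted p from 0.0356 to 0.0989. It was also the single member of the SIGLEC family to pass, of 7 tested besides Siglech, and Siglec1 had a log2 fold change of -0.62 (adjusted p = 0.407, edgeR). Fcrla, an intracellular Fc receptor-like protein of B cells, had 4.83, 4.38 and 4.93 CPM in wild-type and 1.40, 2.41 and 2.20 CPM in knockout libraries, without overlap, and did not pass (log2 fold change -1.24, SE 0.35, edgeR adjusted p = 0.0962). Most of the abundant genes of this list are not restricted to B cells: Cd74, the invariant chain of MHC class II, took the largest part of its summed level, which ran from 15713 to 21145 CPM over the wild-type and from 19189 to 25902 CPM over the knockout libraries.

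The signalling chain below the B cell receptor, which Fc and lectin receptors of myeloid cells share, was abundant in both groups. Of its 17 genes, all tested, 1 rose, none fell and 16 did not pass, with a median log2 fold change of -0.15. Grb2, an adaptor of many receptors, averaged 28.1 ± 5.73 CPM in wild-type against 50.7 ± 9.29 CPM in knockout libraries (SD, n = 3 each). It rose by 0.85 on the log2 scale (SE 0.19, adjusted p = 0.0402, edgeR). It did not pass with library size alone (adjusted p = 0.077), and of the fits that left out a library it passed in the one without wild-type replicate 2, with adjusted p from 0.043 to 0.162. Cd81, a tetraspanin of many cell types, had the next smallest p, with a log2 fold change of 0.34 (SE 0.10, adjusted p = 0.106, edgeR). The kinases Syk (156 ± 40.8 and 175 ± 19.0 CPM), Lyn (253 ± 17.7 and 272 ± 23.4 CPM) and Btk (73.1 ± 8.55 and 65.7 ± 7.76 CPM in wild-type and knockout libraries, SD, n = 3 each) overlapped between groups.

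Genes of plasma cells and switched immunoglobulins gave no call: of 16 listed, 14 are in the table, and 0 of 7 tested passed by edgeR. At an unadjusted edgeR p below 0.05 there were 3, by DESeq2 1 passed and by limma-voom 0. For scale, among all 12580 tested genes the one ranked 1904 by p had an unadjusted edgeR p of 0.0459. The one ranked 2043 had an unadjusted edgeR p of 0.0517. By DESeq2 772 of all tested genes passed, and by limma-voom 319. The smallest p of the list belonged to Tnfrsf13b, a receptor for the B cell survival factors BAFF and APRIL. It stood at 71.0 ± 8.80 and 49.0 ± 3.36 CPM (SD, n = 3 each), with a log2 fold change of -0.53 (adjusted p = 0.0621 by edgeR). It passed with library size alone, without the count filter, with the filter at a mean of 5 CPM and with DESeq2. Irf4 had a log2 fold change of -0.70 (adjusted p = 0.236, edgeR). Ighg1, Ighg2b and Ighg2c, the switched gamma heavy chains, had 3, 7 and 4 counts, all in wild-type replicate 1.

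Of the plasmacytoid genes, Siglech and Ly6d had few counts, and Tcf4 and Runx2, which other cells also use, had 162 or more in every library. Siglech (ENSMUSG00000051504, chromosome 7, 55768178 to 55778925, plus strand) had 3, 19 and 6 counts in wild-type and 17, 10 and 28 counts in knockout libraries, or 0.148, 1.01 and 0.276 against 0.955, 0.671 and 2.05 CPM. The groups overlapped, since wild-type replicate 2 lay above knockout replicates 1 and 2. The log2 fold change was 1.35 (SE 0.80, 95% interval -0.43 to 3.13, edgeR adjusted p = 0.474). Without wild-type replicate 2 it was 2.47 and without knockout replicate 3 it was 0.77, neither passing. Ly6d (ENSMUSG00000034634, chromosome 15, 74762056 to 74763620, minus strand) had 0, 0 and 7 counts in wild-type and 0, 4 and 0 counts in knockout libraries. Each group held 1 library with counts, and a count of 0 allows up to 0.148 to 0.22 CPM in the other 4.

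Tcf4 (ENSMUSG00000053477, chromosome 18, 69343356 to 69689079, plus strand), the factor that sets plasmacytoid identity, stood at 52.6, 51.8 and 63.7 CPM in wild-type and 65.2, 55.8 and 42.4 CPM in knockout libraries. Both the highest and the lowest library were knockout, and the groups overlapped. The log2 fold change was -0.04 (SE 0.17, 95% interval -0.41 to 0.33, edgeR adjusted p = 0.94). Its sign was positive when wild-type replicate 3 (0.06) or knockout replicate 3 (0.11) was left out. Neither of the other E proteins passed: Tcf3 had a log2 fold change of -0.03 (SE 0.19) and Tcf12 of -0.40 (SE 0.21). Per kilobase of all annotated exons, Tcf3 stood at 9.57 ± 2.13, Tcf4 at 2.05 ± 0.242 and Tcf12 at 1.68 ± 0.233 CPM per kilobase in wild-type libraries (SD, n = 3 each). Tcf4 and Tcf12 did not differ by more than the sum of their SDs, and the 27382 annotated exon bases of Tcf4, spread over many isoforms, lower its value on this scale.

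Of the ID inhibitors, which bind E proteins and keep them off DNA, Id2 was the most abundant. It stood at 598, 561 and 652 CPM in wild-type and 860, 893 and 818 CPM in knockout libraries and rose by 0.51 on the log2 scale (SE 0.10, edgeR adjusted p = 0.0282). It did not pass with library size alone (adjusted p = 0.0717), and of the fits that left out a library it passed in the one without wild-type replicate 3, with adjusted p from 0.031 to 0.117. Id1 (0.31) and Id3 (-0.28) did not pass, and Id4 had 7 counts in all, 5 and 2 of them in wild-type replicates 2 and 3. Bcl11a, a zinc finger factor needed for B cells and plasmacytoid cells, fell from 3.70, 3.84 and 5.62 CPM to 1.46, 0.939 and 0.879 CPM. Its groups did not overlap (log2 fold change -1.99, SE 0.40, edgeR adjusted p = 0.0327). Bcl11a passed in none of the 6 fits that left out a library (adjusted p from 0.053 to 0.124, log2 fold change from -2.26 to -1.77) and not with limma-voom (0.056). In all, of 14 tested E proteins, ID inhibitors, RUNX factors and their partners, 1 rose, 1 fell and 12 did not pass.

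Runx2 (ENSMUSG00000039153, chromosome 17, 44495987 to 44814797, minus strand) stood at 12.7, 16.6 and 12.3 CPM in wild-type and 12.2, 16.3 and 11.9 CPM in knockout libraries. Replicate 2 was the highest in both groups, and the groups overlapped. The log2 fold change was -0.04 (SE 0.21, 95% interval -0.51 to 0.43, edgeR adjusted p = 0.956). It turned to 0.10, 0.02 and 0.04 without wild-type replicate 2, knockout replicate 1 and knockout replicate 3. An antisense gene, Runx2os1, shares 519 exon bases with it and had 20 to 31 counts in each library beside the 162 to 310 counts of Runx2. The sources used here do not say whether strand was used in counting, so reads of that stretch could belong to either. Per kilobase of exon in wild-type libraries Runx3 stood at 14.99 ± 0.944, Runx1 at 5.74 ± 1.03 and Runx2 at 1.57 ± 0.265 CPM per kilobase (SD, n = 3 each), each further from its neighbour than the sum of their SDs. Runx1 (-0.03) and Runx3 (0.33) did not pass.

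**Figure D3:**
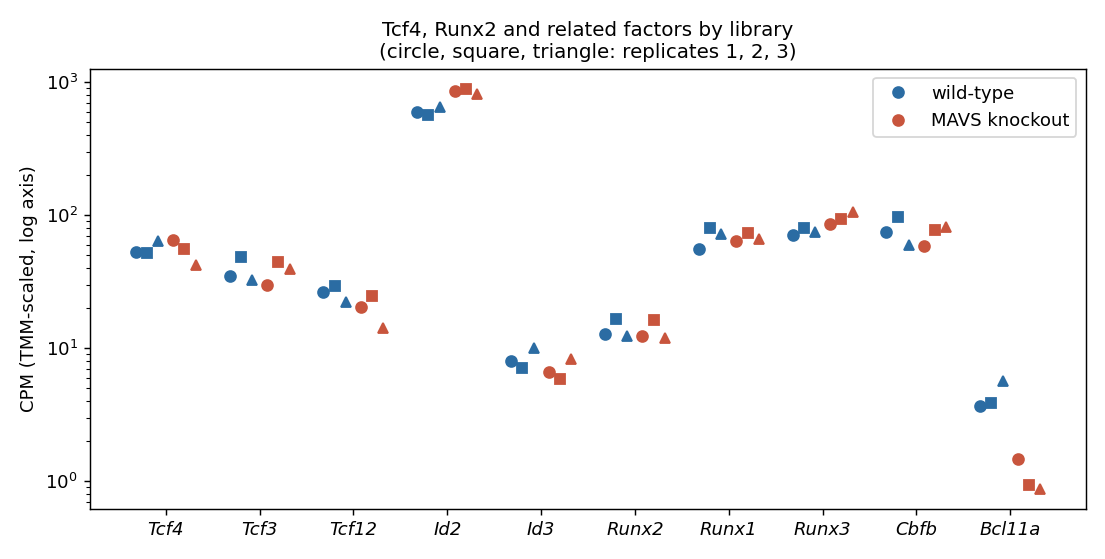
CPM on a log axis in each library of Tcf4, Runx2, their family members, ID inhibitors and partner factors, wild-type in blue and MAVS knockout in red. The groups interleave for Tcf4, Tcf3, Runx2 and Runx1, whereas all 3 knockout libraries lie above wild-type for Id2 and below it for Bcl11a.

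Of 30 further plasmacytoid genes 23 were tested, 1 fell (Bcl11a, given above), none rose and 22 did not pass, with a median log2 fold change of -0.29. Smim5 had the next smallest p, with 19.4, 10.8 and 10.5 CPM in wild-type and 6.85, 5.63 and 5.27 CPM in knockout libraries. Its groups did not overlap, and it missed the threshold (log2 fold change -1.19, SE 0.28, edgeR adjusted p = 0.0529). It passed with library size alone, without the count filter, with the filter at a mean of 5 CPM, with DESeq2 and with the replicate number as a block. Several other genes used to mark plasmacytoid cells had low counts in every library. Ccr9, a gut-homing receptor that some T cells share, had 0, 26 and 21 counts in wild-type and 7, 3 and 7 counts in knockout libraries, and Tlr9, a sensor of DNA that B cells and other myeloid cells also make, had 18, 7 and 7 against 3, 4 and 0 counts. Klk1 had 16 counts in all and Klk1b27 had 7, all in wild-type replicate 2. The abundant genes of the list, Irf8 (378 ± 138 and 436 ± 12.003 CPM), Irf7 (119 ± 35.3 and 117 ± 15.7 CPM) and Bst2 (61.6 ± 9.60 and 82.2 ± 14.2 CPM, wild-type and knockout, SD, n = 3 each), are also made by other dendritic cells or induced by interferon, and none passed. Among 5 tested relatives of Ly6d, Ly6a rose by 1.08 (SE 0.20, edgeR adjusted p = 0.0244) and Ly6i had a log2 fold change of 1.10 without passing (adjusted p = 0.0712, edgeR). Ly6a did not pass without wild-type replicate 1, knockout replicate 2 or knockout replicate 3 (adjusted p = 0.0567, 0.0849 and 0.12).

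**Figure D4:**
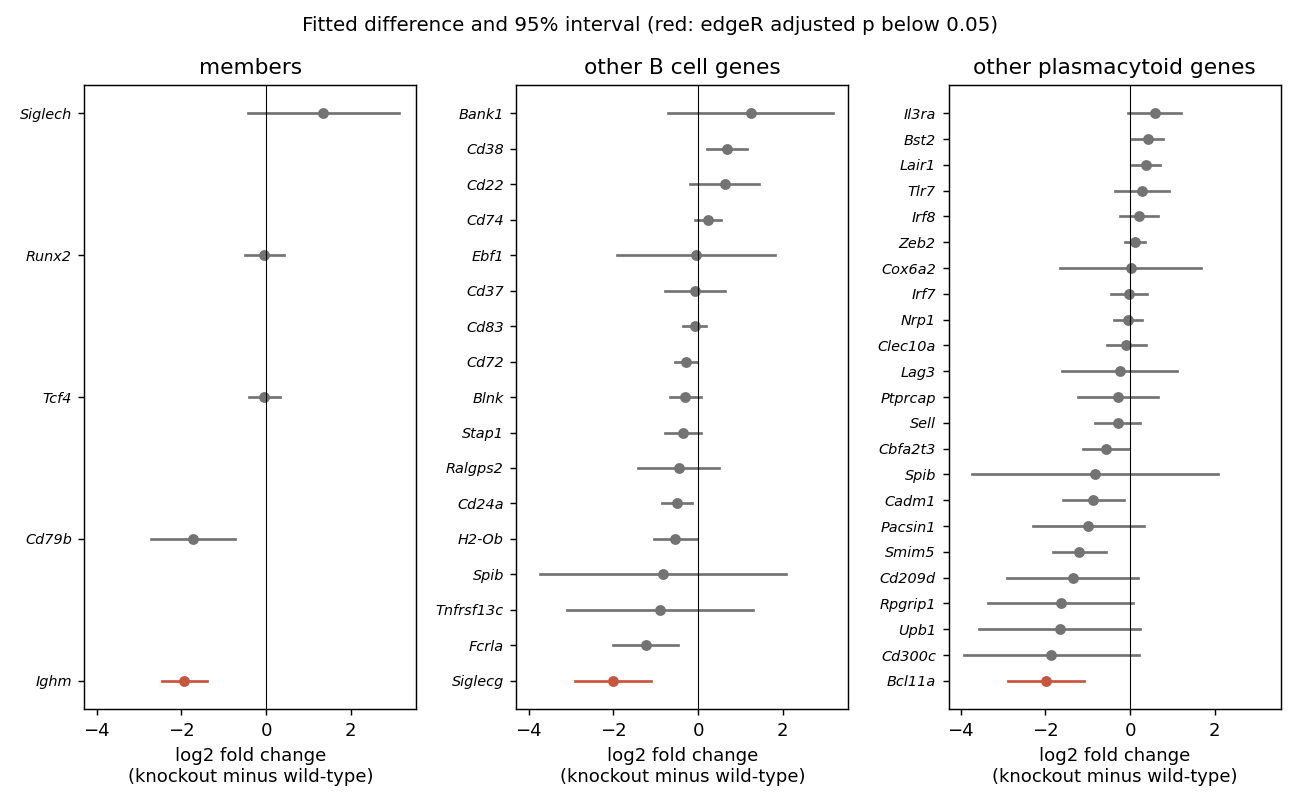
Log2 fold change of knockout against wild-type with its 95% interval for the tested genes of the set, of the further B cell genes and of the further plasmacytoid genes, in red where the adjusted p was below 0.05 by edgeR. Ighm, Siglecg and Bcl11a passed, at -1.93, -2.01 and -1.99, while Tcf4 and Runx2 sat at -0.04.

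The reference table of promoters holds 3 of the 9 genes, Cd79a, Siglech and Runx2. They are shown because Tcf4 and Runx2 are themselves factors that bind DNA: E proteins bind, among related forms, the letters CAGGTG, which read CACCTG from the other strand. RUNX factors bind the letters TGTGGT, which read ACCACA from the other strand. Each window runs from 250 bases before to 50 bases after the RefSeq start of the gene on GRCm38.p6 (the mm10 build), 5′ to 3′ on the strand of the gene. Capitals mark both sets of letters, on either strand, in Cd79a (chr7:24897247-24897546, plus strand), Siglech (chr7:55767934-55768233, plus strand) and Runx2 (chr17:44814578-44814877, minus strand).
Cd79a: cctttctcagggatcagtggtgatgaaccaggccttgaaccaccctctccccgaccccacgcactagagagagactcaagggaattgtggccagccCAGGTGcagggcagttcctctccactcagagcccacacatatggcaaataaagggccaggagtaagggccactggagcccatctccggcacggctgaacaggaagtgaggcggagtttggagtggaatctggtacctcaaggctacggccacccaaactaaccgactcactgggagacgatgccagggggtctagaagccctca
Siglech: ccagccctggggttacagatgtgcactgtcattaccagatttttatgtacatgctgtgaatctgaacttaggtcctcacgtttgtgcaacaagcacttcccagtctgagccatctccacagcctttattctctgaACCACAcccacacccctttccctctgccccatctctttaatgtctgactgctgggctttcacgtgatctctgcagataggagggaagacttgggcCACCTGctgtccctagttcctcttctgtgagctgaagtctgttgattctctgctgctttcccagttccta
Runx2: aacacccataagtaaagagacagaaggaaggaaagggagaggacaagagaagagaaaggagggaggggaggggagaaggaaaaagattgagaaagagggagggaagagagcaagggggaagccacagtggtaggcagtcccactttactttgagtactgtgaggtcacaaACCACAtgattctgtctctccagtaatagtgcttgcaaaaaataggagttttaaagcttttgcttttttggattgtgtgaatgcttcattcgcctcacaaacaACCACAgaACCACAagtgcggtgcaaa
Counted from 1 at the 5′ end, the E protein letters begin at base 97 in Cd79a and at base 231 in Siglech. The RUNX letters begin at base 136 in Siglech and at bases 171, 274 and 282 in Runx2. The E protein letters are not in the Runx2 window and the RUNX letters are not in the Cd79a window. Of 32851 promoter windows of 300 bases in the table, 20.2% hold CAGGTG on either strand, 16.8% hold TGTGGT on either strand, and 0.183% hold TGTGGT at 3 or more places. A match describes the letters and not a site of binding. The levels already given were 42.4 to 65.2 CPM for Tcf4 in every library, 0.148 to 2.05 CPM for Siglech and 0 to 0.427 CPM for Cd79a. Whether TCF4 acts on either gene was not tested.

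The values of Ighm were set beside those of every tested gene with a mean of at least 5 CPM to find the 3 with the most similar pattern over the 6 libraries. These were Zbtb41, a zinc finger gene (Pearson r = 0.988), Slc9a9, a proton exchanger of endosomes (r = 0.986), and Arfgap2, which acts on vesicle coats (r = 0.986), among 8987 genes compared. The correlations are a description over 6 libraries in 2 groups that share depth and scaling. Slc9a9 fell by 1.21 on the log2 scale (SE 0.23, edgeR adjusted p = 0.0281) and of the fits that left out a library passed in the one without wild-type replicate 2, with adjusted p from 0.027 to 0.12. Zbtb41 (-0.39) and Arfgap2 (-0.22) did not pass. For Tcf4 the 3 nearest were B4galt7 (r = 0.997), St7l (r = 0.986) and Trpv4 (r = 0.959), with log2 fold changes of -0.06, -0.01 and -0.13, none passing.

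Some dendritic cell genes outside the set also fell in knockout libraries. Of 14 genes of type 1 conventional dendritic cells, which take up dead cells and cross-present their antigens, 7 fell and none rose by edgeR, beside 1.05% of all tested genes that fell, and 7 passed by DESeq2 and 5 by limma-voom. For 7 of the 14 all knockout libraries lay below wild-type, beside 10.6% of all tested genes, and for 1, Cd8a, all lay above. Their summed level ran from 941 to 1579 CPM over the wild-type and from 957 to 1076 CPM over the knockout libraries, most of it from Irf8 and Naaa, and none of the 14 was at 0 in any library. Flt3, the growth factor receptor of dendritic cells, stood at 42.4, 34.1 and 73.3 against 10.8, 10.9 and 15.5 CPM. Btla, an inhibitory receptor, stood at 32.5, 22.2 and 37.1 against 5.67, 6.37 and 7.18 CPM. Xcr1, the chemokine receptor of these cells, stood at 35.6, 21.9 and 47.7 against 7.25, 6.37 and 9.74 CPM. In wild-type libraries these genes and Ighm shared an order, replicate 3 highest and replicate 2 lowest. In knockout libraries they did not, since Ighm was lowest in replicate 3, where Flt3, Btla and Xcr1 were highest. The wild-type order was also that of the total counts (19201453, 17357031 and 20851733 in replicates 1, 2 and 3). It was that of the number of genes with a count too (20082, 16947 and 21432), so it is not particular to these genes. The log2 fold changes of Flt3, Btla and Xcr1 were -2.01, -2.26 and -2.18 (edgeR adjusted p = 0.011, 0.00181 and 0.00994), beside -1.93 for Ighm. Flt3 did not pass without knockout replicate 1 (adjusted p = 0.0515, edgeR). Clec9a, a receptor for dead cells that type 1 cells carry, did not pass (log2 fold change -0.07, SE 0.28). The part of these cells in the Ighm values was not tested.

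**Figure D5:**
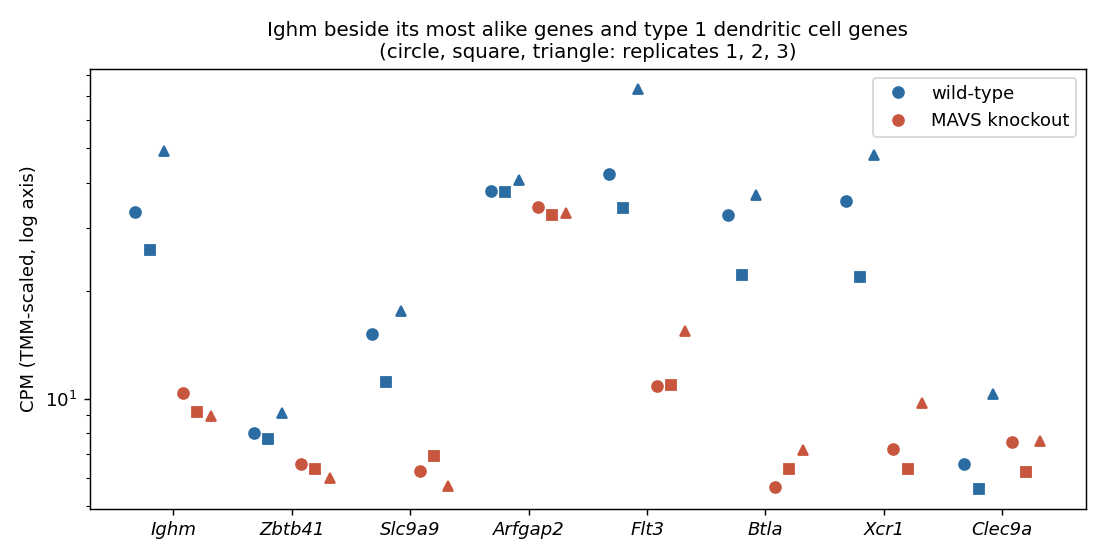
CPM on a log axis in each library of Ighm, the 3 genes with the most similar pattern and 4 genes of type 1 conventional dendritic cells, wild-type in blue and MAVS knockout in red. All 3 knockout libraries lie below wild-type for each gene except Clec9a, with Ighm at 8.94 to 10.4 CPM and Xcr1 at 6.37 to 9.74 CPM. Zbtb41, Slc9a9 and Arfgap2 were picked for their likeness to Ighm, and Flt3, Btla and Xcr1 after their values were seen. Their separation therefore follows from the choice and tests nothing, and 10.6% of all tested genes showed it.

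For the labelled cell type, 10 genes that dendritic cells share were all detected, with Zbtb46 and Kit among them. Their summed level, most of it MHC class II genes and Cd74, which macrophages also make, ran from 39255 to 47031 CPM over the wild-type and from 43551 to 54595 CPM over the knockout libraries. Of these 10, 3 fell and none rose, beside 1.05% of all tested genes that fell: Flt3, counted above among the type 1 genes, Kit (-1.27) and Zbtb46 (-1.20). Kit passed in 4 of the 6 fits that left out a library (edgeR adjusted p from 0.0223 to 0.095). Zbtb46 passed in 1 of these fits (edgeR adjusted p from 0.0467 to 0.172) and not with limma-voom (0.0612). Of 10 genes of type 2 conventional dendritic cells 1 rose, Sirpa (0.56), and 1 fell, Cd209a (-1.86, edgeR adjusted p = 0.00806). Over all tested genes 1.76% rose and 1.05% fell. Sirpa passed in 2 of the 6 fits that left out a library (edgeR adjusted p from 0.027 to 0.104) and not with library size alone (0.0663). Cd209a passed in each of the 6 fits that left out a library and under all 8 other settings. Falls near the size of that of Ighm were thus not limited to type 1 genes. T cell, natural killer and macrophage markers were present in both groups, the 12 macrophage genes at a summed 26592 to 31853 CPM over the wild-type and 28265 to 35896 CPM over the knockout libraries. Of 15 tested T cell genes Il7r rose (1.07), and of 8 natural killer genes and 12 macrophage genes 0 passed by edgeR. At an unadjusted edgeR p below 0.05 there were 2 and 7 of these, and by DESeq2 0 and 4 passed, by limma-voom none. For scale, among all 12580 tested genes the one ranked 1904 by p had an unadjusted edgeR p of 0.0459, and 772 passed by DESeq2. Cd8a (1.98), Nkg7 (1.07), Klrd1 (-0.81), Apoe (-0.84) and C1qa (0.39) had the smallest p of their lists besides. For 6 of the 12 macrophage genes all knockout libraries lay above wild-type, beside 11.2% of all tested genes. For 1, Apoe, all lay below, beside 10.6%. The median log2 fold change of the 12 was 0.29, beside -0.0022 over all tested genes. The summed level of the T cell list, most of it Il7r, ran from 124 to 186 CPM over the wild-type and from 285 to 302 CPM over the knockout libraries. Il7r alone stood at 115, 105 and 153 CPM in wild-type and 279, 255 and 252 CPM in knockout libraries. The difference in the sum is thus mainly that of 1 gene, and the other 14 tested genes did not pass. Within wild-type libraries both the sum and Il7r ran in the same order as Ighm and as the total counts, with replicate 3 highest and replicate 2 lowest. The part of T cells or macrophages in the values above was not tested.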

How the data were processed

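RNA sequencing of dendritic cells from tumours gave 6 libraries, 3 wild-type and 3 MAVS knockout, grouped by their titles. Trizol was used for the RNA and, per the labels, libraries came from the TruePrep DNA Library Prep Kit V2. The authors deposited 1 table of unnormalised read counts, indexed by Ensembl gene. Per the submitters' processing notes, the build was mm10 and the tools were HISAT2, HISAT, HTSeq and DESeq2, whose roles and settings they do not state. The sources used here give neither the annotation release nor the strand setting. Symbols, positions and exon lengths came from GENCODE M21 (GRCm38), which matched 26356 of 26519 identifiers.

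Genes were kept by filterByExpr in edgeR 4.0.16 (R 4.3.3) at its minimum count of 10 and total of 15. After TMM scaling the groups were compared by the quasi-likelihood test with no covariate, and p-values were adjusted by Benjamini-Hochberg over 12580 genes, with 0.05 as threshold. Standard errors and 95% intervals came from that fit. Likeness was Pearson's r of log2(CPM + 0.5).

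As alternatives, scaling was changed to library size alone or to DESeq2 size factors, and the filter was dropped or raised to a mean of 5 CPM. The Wald test of DESeq2 1.42.0, limma-voom (limma 3.58.1), a replicate block, robust dispersion and leaving out each library were also run. The procedure was also run on simulated counts, whose spread followed a common trend without gene-specific or library effects. Its outcome is not given here and no result above rests on it.

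The members and gene lists were chosen with earlier results of these data known. Named genes are the 9 members, Mavs, the genes of each list past the threshold or with the 2 smallest p (at most 4 for lists of other cell types), and the 3 genes most like Ighm and Tcf4. Others were chosen after their values were seen, as markers that define a cell type, relatives of a member, or genes with the most counts in a list. Lists hold genes that others share, such as Cd74, Irf8, Bcl11a and Siglecg. A few genes of the lists are not reported here.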

Additional observations from a re-analysis of the deposited data

How the results depend on the processing

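Igkc, Cd79a, Ms4a1 and Ly6d had too few counts for the filter, and the smallest change visible at this depth was not measured. Without the count filter, a fit over 26519 genes, their edgeR adjusted p was 0.736, 0.698, 0.329 and 0.972.

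The number of the 9 members that passed was 1. It was 2 with library size alone, without the count filter and with the DESeq2 Wald test, and 1 to 2 when each library was left out, Cd79b being the second each time. Over all genes the number was 354 (222 higher, 132 lower), 924 without the count filter, 772 with the DESeq2 Wald test and 36 to 277 when each library was left out, the lowest without knockout replicate 3; the cause was not tested. With library size alone, which moved the median over all genes to -0.17 from -0.0022 (log2), 102 were higher and 341 lower, so directions are relative to the TMM median.

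Signs turned in some fits that left out a library for Tcf4 (-0.19 to 0.11), Runx2 (-0.20 to 0.10), B4galt7 (-0.22 to 0.11), St7l (-0.049 to 0.036) and Trpv4 (-0.27 to 0.010), none of which passed in any fit. Ighm kept its direction and its call under all alternatives, with adjusted p from 3.318e-18 to 0.0461.

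No pairing by replicate number was seen. The correlations of deviations from the group means were 0.0299, 0.106 and -0.0264 for the same-numbered pairs and ran from -0.139 to 0.128 for the others. With 3 libraries in each group these values cannot exclude a pairing. With a replicate block 414 genes passed over all genes and 1 of the members, Ighm, at -1.88 (adjusted p = 0.00296, edgeR).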

Other observations

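Read counts of Ighm were set beside those of Xcr1, Flt3 and Btla, a comparison made after the values were seen. These 3 genes had log2 fold changes of -2.18, -2.01 and -2.26 beside -1.93 for Ighm. Similar ratios in both groups therefore follow from the choice and test nothing. Clec9a, of the same list, had 133, 105 and 224 counts in wild-type and 135, 93 and 104 counts in knockout libraries, without such a fall. For each count of Xcr1 there were 0.932, 1.19 and 1.03 counts of Ighm in wild-type replicates 1, 2 and 3 and 1.43, 1.44 and 0.917 in knockout replicates 1, 2 and 3. For each count of Flt3 there were 0.784, 0.763 and 0.671 counts of Ighm in wild-type and 0.959, 0.84 and 0.578 in knockout libraries. For each count of Btla there were 1.02, 1.17 and 1.33 counts of Ighm in wild-type and 1.83, 1.44 and 1.24 in knockout libraries. Over all 6 libraries Ighm had 2673 counts, Igkc 45 and the 41 variable segments 190 together.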
